A study of Homo sapiens with 18 samples.

Results

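The genes at the end of the short arm of chromosome 8 (8p) were followed in neuroblastoma lines with acquired resistance to entrectinib, which inhibits Trk receptors and the kinases ALK and ROS1. The set holds the protein-coding genes of GENCODE release 29 that start between ZNF596, near the end of the arm, and XPO7. It leaves out GFRA2, SLC18A1, FDFT1, CTSB and ATP6V1B2. Of the 63657 gene identifiers with deposited values, 100 were members. The 43 members with at least 1 FPKM (fragments scaled to transcript length and to the library's total) in no fewer than 3 of 18 libraries entered the tests, among 19799 genes that passed the same filter. The stretch was selected on the FPKM of ER42 against the other lines, because its genes were low in that resistant line. Those values are given here as a description, without p-values for single genes.

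Bulk RNA was sequenced from 3 libraries of each of 6 lines. ER42 and ER47 were grown from subcutaneous tumours of nude mice that had received 60 mg/kg entrectinib by mouth every 6 h. ER5, ER28 and ER29 came from mice dosed every 4 h with the same amount. Each of these 5 resistant lines came from 1 tumour that first responded and then regrew. In culture the drug was raised from 10 to 750 nM, and the cells were held at 200 nM for harvest. The labels call the held cultures clones and do not say how clones were picked. The parental line, SY5Y_BR6, is a derivative of SH-SY5Y that expresses the neurotrophin receptor TrkB. The 5 resistant lines descend from it, and no drug is given for it. Resistance, drug in the medium, growth in a mouse and time in culture therefore cannot be told apart, nor can the 6 h interval and the lines ER42 and ER47. Nothing in the labels says that the 3 libraries of a line are separate cultures, and the spread behind each p-value may be technical.

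Genes of one chromosome arm share no single function, but an arm can be lost, gained or silenced as a block, and then its genes change together. Loss of 8p is a common event in carcinomas of the liver, breast, prostate and bowel, and several of its genes, among them DLC1, TUSC3, MTUS1 and LZTS1, have been studied there as candidate growth suppressors. The end of the arm also carries a large cluster of defensins, antimicrobial peptides of epithelia and leukocytes. In these libraries 24 of the members are defensins, and the highest value of any of them was 0.688 FPKM, for DEFB134.

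Each library's FPKM added up to 848024 to 1106282, and 16041 to 18265 genes reached 1 FPKM. The depth of the libraries is unknown, and the steps between low values placed it between 1 and 1.95 times that of parental replicate 1, with 5.45 to 21.8% of 1263 to 1693 low genes at the most common step. Log2 values correlated at 0.953 to 0.975 within lines and at 0.892 to 0.964 between lines, across genes, which are not independent replicates. The 6 neuroblastoma markers PHOX2A, HAND2, GATA3, ISL1, DBH and TH summed to 1430 to 1510 FPKM in ER42 and to 1100 to 1970 FPKM over all libraries, although TH itself was never above 0.581 FPKM. Markers of endothelium and leukocytes summed to at most 0.645 and 0.888 FPKM, with PECAM1 and CD3E at 0, and Schwann cell and glial markers to at most 5.07 FPKM. Fibroblast markers summed to 22.2 to 29.6 FPKM in ER42, 33.4 to 34.9 in ER47, 34.5 to 38.1 in ER5, 38.9 to 41.7 in ER28, 26.1 to 31.2 in ER29 and 21.8 to 26.8 in the parental line, and their part in the results was not tested. NTRK2, which encodes TrkB, averaged 261 ± 30.6 FPKM in ER42, 391 ± 39.9 in ER47, 248 ± 25.3 in ER5, 318 ± 28.1 in ER28, 200 ± 16.3 in ER29 and 411 ± 9.86 in the parental line (SD, n = 3 each).

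The low level in ER42 held for the outer part of the stretch and not for its inner part. From ZNF596 to TUSC3, 29 tested genes had a median level in ER42 of 60.7% of that in the parental line. The same median was 72.3% against ER47, 54.7% against ER5, 56.9% against ER28 and 55.9% against ER29. From MICU3 to XPO7, 14 tested genes had a median level in ER42 of 89.6% of that in the parental line, and of 94.8%, 93.4%, 101% and 99.5% against ER47, ER5, ER28 and ER29. The label of low in ER42 therefore does not describe the inner genes. The division between TUSC3 and MICU3 was set after the values were seen, so no test compares its sides, and MSR1 and FGF20, which lie between them, were not tested.

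**Figure D1:**
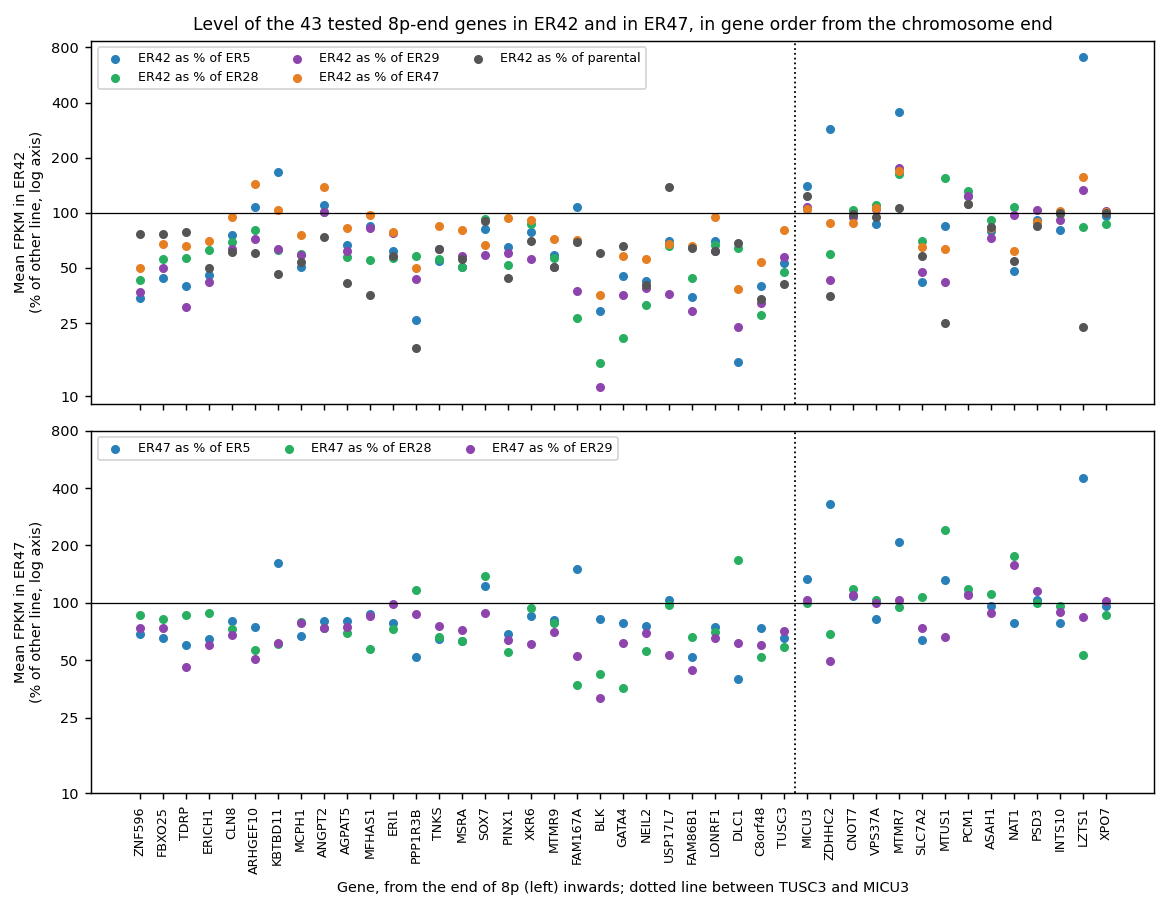
Mean FPKM of each of the 43 tested genes, as a percentage on a log axis, in ER42 against each of the 5 other lines (upper panel) and in ER47 against ER5, ER28 and ER29 (lower panel), with genes in their order from the end of the arm. Points left of the dotted line (29 genes, ZNF596 to TUSC3) lie mostly below 100% in both panels, and points right of it (14 genes, MICU3 to XPO7) lie on both sides.

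Over all 43 tested members, the median log2 fold of ER42 was -0.55 against the parental line, -0.26 against ER47, -0.40 against ER5, -0.55 against ER28 and -0.66 against ER29. The same medians over all 19799 genes tested were 0.02, 0.05, 0.01, 0.02 and 0.01. Called at a limma adjusted p under 0.05, 25 members were lower and 0 higher in ER42 than in the parental line, where 22.8% of all genes were called lower and 16.9% higher. Against ER47, 16 were lower and 3 higher, with 7.72% and 11.8% of all genes. Against ER5, 24 were lower and 5 higher, with 20.9% and 21.4% of all genes. Against ER28, 24 were lower and 2 higher, with 10.8% and 10.4% of all genes. Against ER29, 31 were lower and 3 higher, with 15.2% and 15.5% of all genes. All members are protein-coding. Of the tested genes of that type, 32.6% were lower and 15.1% higher in ER42 than in the parental line. Against ER47, ER5, ER28 and ER29, 9.84%, 26.4%, 14.7% and 18.3% of them were lower. Those higher made up 14.8%, 23.9%, 10.8% and 19.5%. Nothing is read from these counts, since the same contrasts chose the members. Without ER42 replicate 2 or ER28 replicate 3, the count higher than in ER28 was 1.

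By stretch, the log2 fold of ER42 was below 0 in 28 of the 29 outer genes against the parental line, 26 against ER47, 26 against ER5, 28 against ER28 and 28 against ER29. It was below 0 in 11 of the 14 inner genes against the parental line, 7 against ER47, 9 against ER5, 7 against ER28 and 7 against ER29. Among the inner genes the level in ER42 was at its highest, 707% of that in ER5, for LZTS1. These counts describe the contrasts that chose the members, on both sides of a division drawn from the same values, and carry no test.

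In 12 members, where all genes gave 2.3%, the 3 ER42 libraries lay below the 15 others, and nothing is read from that count either. They were FBXO25, ERICH1, MCPH1, AGPAT5, ERI1, PPP1R3B, MTMR9, NEIL2, FAM86B1, C8orf48 and TUSC3 of the outer stretch, and SLC7A2 of the inner one. In 26 members ER42 had the lowest mean of the 6 lines, against 14.3% of all genes, and 24 of these lay in the outer stretch.

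Within ER42 and within ER47, the 3 libraries differed little in the median of the outer stretch, though single genes could differ more. FAM167A, for one, had 5.03, 9.92 and 19.3 FPKM in the 3 libraries of ER42. The median level of the stretch, as a percentage of the parental mean, was 56.2, 57.7 and 55.3% in the 3 libraries of ER42. It was 71.4, 71.8 and 70.6% in those of ER47. It spread more widely in ER5 (88.9 to 110%) and ER28 (90.2 to 109%) than in ER29 (99.2 to 105%) and the parental line (98 to 100%). The median of the inner stretch was 83.8 to 91% in ER42, 87.1 to 95% in ER47, 82.3 to 103% in ER5, ER28 and ER29, and 97.9 to 101% in the parental line, so that the resistant lines overlapped there. In bulk RNA, fewer cells that carry a transcript and less of it per cell cannot be told apart.

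**Figure D2:**
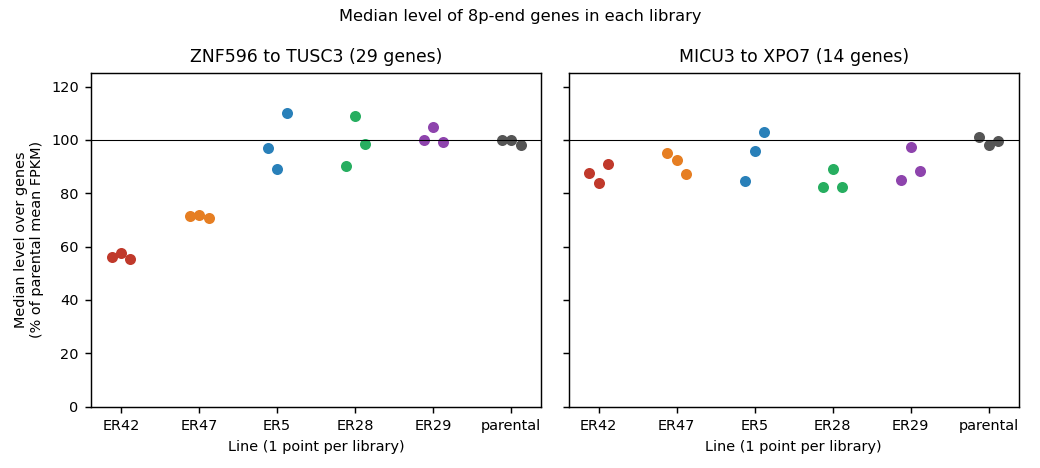
Median level over the 29 outer genes (left) and the 14 inner genes (right) in each library, as a percentage of the parental mean FPKM, with 1 point per library and 3 libraries per line. In the outer stretch the ER42 points lie between 55.3 and 57.7% and the ER47 points between 70.6 and 71.8%, below all points of ER5, ER28, ER29 and the parental line, whose lowest is 88.9%.

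Against the other resistant lines, the rest of the chromosome did not share the low level of ER42. Against the parental line the rest of 8p was somewhat low, where all tested protein-coding genes had a median log2 fold of -0.09. The median log2 fold of ER42 against the parental line, ER47, ER5, ER28 and ER29 was -0.18, 0.02, 0.00, -0.03 and 0.02 over 110 tested protein-coding genes of 8p beyond XPO7. Over 272 tested genes of the long arm it was -0.06, 0.04, -0.02, 0.04 and 0.02. Genes of other types within the stretch, such as long non-coding RNAs, had medians of -0.18, -0.19, -0.40, -0.31 and -0.59 over 49 tested.

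**Figure D3:**
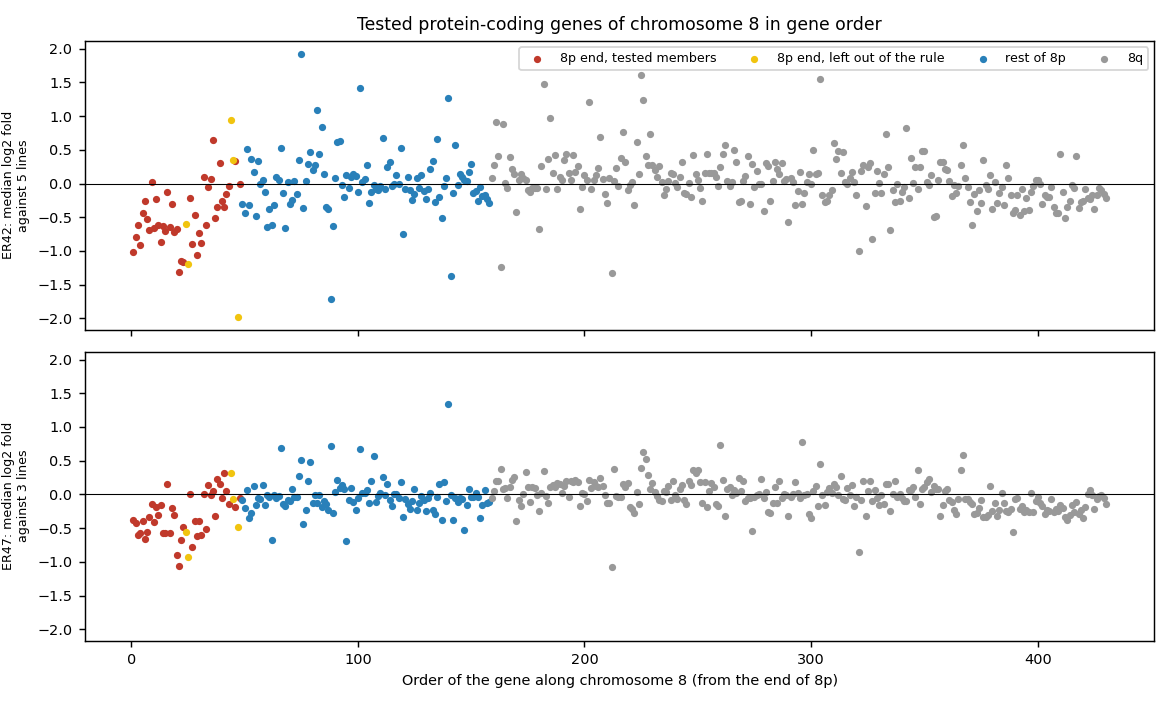
Median log2 fold of ER42 against the 5 other lines (upper panel) and of ER47 against ER5, ER28 and ER29 (lower panel) for each tested protein-coding gene of chromosome 8, in gene order from the end of 8p. Of the 43 members at the left, most lie below 0 in both panels, while the 110 genes of the rest of 8p and the 272 genes of 8q lie on both sides of 0.

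ER47 was the other line with low outer genes. ER42 does not enter the folds of ER47 against the 3 lines from mice dosed every 4 h. The ER42 libraries do enter the filter and the shared estimate of spread behind the calls of that comparison. This comparison was added after the values were seen, and its 3 contrasts share the ER47 libraries. The values of ER5, ER28 and ER29 had been used in choosing the stretch, since ER42 was low against them, and a choice that favours high values there also favours a lower ER47. Its counts and adjusted p-values are therefore a description and no independent test. Against ER5, 17 of the 43 members (39.5%) were lower in ER47 and 4 were higher, where 11.4% of all genes were lower and 9.16% higher. Against ER28, 21 (48.8%) were lower and 2 higher, where 11.4% of all genes were lower and 6% higher. Against ER29, 16 (37.2%) were lower and 0 higher, where 3.54% of all genes were lower and 2.05% higher. Of the 12795 tested protein-coding genes, the type of all members, 14.8%, 15.8% and 4.33% were lower in ER47 than in ER5, ER28 and ER29. The median log2 folds of the members were -0.27, -0.27 and -0.39 against ER5, ER28 and ER29, beside -0.03, -0.02 and -0.04 over all genes. Without ER28 replicate 2, the count of members higher in ER47 than in ER28 was 4.

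By stretch, 14, 19 and 15 of the 29 outer genes (48.3, 65.5 and 51.7%) were called lower in ER47 than in ER5, ER28 and ER29. Called higher were 1, 0 and 0 of them, and their median levels were 74.7, 70.7 and 67.4%. Of the 14 inner genes, 3, 2 and 1 (21.4, 14.3 and 7.14%) were called lower and 3, 2 and 0 higher. Their median levels were 106, 102 and 101%. Of all genes 11.4, 11.4 and 3.54% were called lower. ER47 had the lowest mean of these 4 lines in 23 of the 29 outer genes. In 16 outer genes it came next above ER42 among all 6 lines. The shares of all genes with these patterns were not computed, so nothing is read from these counts. Of all tested protein-coding genes, 57.2%, 59.1% and 55.5% had a log2 fold below 0 in ER47 against ER5, ER28 and ER29. The 3 ER47 libraries lay below the 9 of ER5, ER28 and ER29 in 12 members, against 2.05% of all genes. These were FBXO25, ARHGEF10, MCPH1, AGPAT5, TNKS, MSRA, PINX1, MTMR9, GATA4, NEIL2, LONRF1 and TUSC3, all outer genes. Called lower against all 3 lines were 10 members, against 0.389% of all genes: FBXO25, MCPH1, AGPAT5, TNKS, PINX1, MTMR9, NEIL2, FAM86B1, LONRF1 and TUSC3. The call of FAM86B1 in ER47 against ER28 was lost without ER28 replicate 1, ER28 replicate 2, ER47 replicate 1 or ER47 replicate 3 (limma adjusted p up to 0.128), and NEIL2 and LONRF1 lost calls as given with their values below. Leaving out 1 library or changing a setting ended none of the 3 calls of AGPAT5, MCPH1, MTMR9, PINX1, TNKS and TUSC3.

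Genome maintenance made up 5 members, all tested. MCPH1, NEIL2, PINX1 and TNKS were lower in ER47 than in the parental line, ER5, ER28 and ER29, while PCM1 was called in none of these. MCPH1 encodes microcephalin, which acts in the DNA damage response and in chromosome condensation. It had 7.47, 7.26 and 6.71 FPKM in ER42, 9.21, 9.51 and 9.69 in ER47, 15.2, 13.3 and 14 in ER5, 11.4, 12.6 and 11.9 in ER28, 12.9, 11.7 and 11.8 in ER29, and 13.6, 12.9 and 13.3 in the parental line. The ER42 libraries lay lowest and did not overlap any other line, and those of ER47 lay between them and the rest. Its log2 fold was -0.81 ± 0.06 (SE) in ER42 against the parental line and -0.36 ± 0.06 in ER42 against ER47. In ER47 it was -0.53 ± 0.06 against ER5, with a limma adjusted p of 6.16e-05.

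NEIL2, a DNA glycosylase that opens base excision repair, had 3.95, 4.21 and 5.32 FPKM in ER42, 7.99, 7.72 and 8.21 in ER47, 11.1, 11.8 and 8.88 in ER5, 14.9, 13.8 and 14.2 in ER28, 12.5, 11.3 and 10.8 in ER29, and 11, 11 and 11.6 in the parental line. Again the ER42 libraries lay lowest, those of ER47 next, and neither overlapped the others. Its log2 fold in ER42 against the parental line was -1.16 ± 0.10 (SE). NEIL2 was higher in ER28 than in the parental line (0.33 ± 0.10, limma adjusted p = 0.0175) and lower in ER47 than in the parental line (-0.44 ± 0.10, limma adjusted p = 0.00183). The difference between these lines was itself called, at -0.77 ± 0.10 for ER47 against ER28 (limma adjusted p = 0.000109). The call in ER28 was lost without ER28 replicate 1, parental replicate 1 or parental replicate 2 (limma adjusted p up to 0.0604). The calls of ER47 were lost against ER29 without ER29 replicate 1 (limma adjusted p up to 0.0514) and against ER5 without ER5 replicate 1, ER5 replicate 2 or ER47 replicate 2 (limma adjusted p up to 0.0974).

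TNKS encodes tankyrase 1, a poly-ADP-ribose polymerase that acts on telomeres and on axin. It had 20.7, 19.4 and 16.4 FPKM in ER42, 22.2, 24.1 and 20.7 in ER47, 36.2, 33 and 34.2 in ER5, 35.6, 34 and 31.7 in ER28, 31.4, 29.1 and 28.2 in ER29, and 29.1, 29.2 and 30.7 in the parental line. The libraries of ER42 and ER47 met at 20.7 FPKM, and both lines lay below the 12 others. TNKS was higher in ER5 than in the parental line (0.21 ± 0.08, limma adjusted p = 0.0368) and lower in ER47 (-0.40 ± 0.08, limma adjusted p = 0.000692). ER47 against ER5 gave -0.61 ± 0.08 (limma adjusted p = 0.000126). The call in ER5 was lost without ER5 replicate 1, ER5 replicate 3, parental replicate 1 or parental replicate 2 (limma adjusted p up to 0.122), whereas the difference between the lines held under every alternative tried.

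PINX1, an inhibitor of telomerase, averaged 5.66 ± 0.481 FPKM in ER42, 6 ± 0.588 in ER47, 8.71 ± 0.342 in ER5, 10.8 ± 0.266 in ER28, 9.43 ± 0.843 in ER29 and 12.8 ± 0.585 in the parental line (SD, n = 3 each). The libraries of ER42 (5.27 to 6.20 FPKM) and ER47 (5.46 to 6.63 FPKM) overlapped each other and lay below the rest, the lowest of which held 8.50 FPKM.

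PCM1, the scaffold of centriolar satellites, had 91.8, 108 and 93.6 FPKM in ER42, 83.2, 90.2 and 88.5 in ER47, 72.5, 73.7 and 90.5 in ER5, 73.3, 83.5 and 65 in ER28, 72.2, 86 and 79.3 in ER29, and 89.1, 86.6 and 87.5 in the parental line. It had the highest mean of the tested members, and here the 3 ER42 libraries lay above the 15 others. Its log2 fold in ER42 against the parental line was 0.15 ± 0.10 (SE), and no call was made against the parental line in ER5, ER28, ER29 or ER47.

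**Figure D4:**
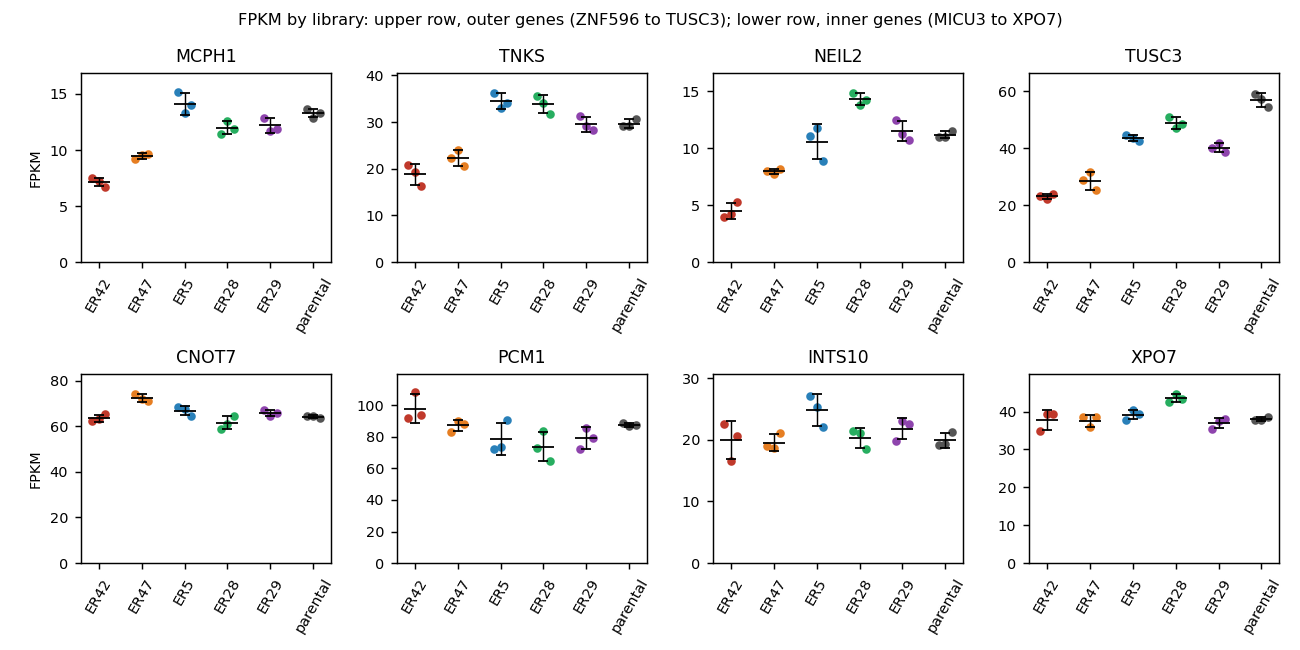
FPKM of 4 outer genes (MCPH1, TNKS, NEIL2 and TUSC3, upper row) and 4 inner genes (CNOT7, PCM1, INTS10 and XPO7, lower row), with 1 point per library and bars for the mean ± SD of 3 libraries per line. In the upper row ER42 and ER47 hold the lowest points, and in the lower row ER42 lies above the other lines in PCM1, ER47 in CNOT7 and ER28 in XPO7.

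Enzymes of lipid, sugar and other metabolism made up 11 members, of which 8 were tested. In ER47, 6 of the 8 fell relative to the parental line and 0 rose, and 5, 4 and 4 fell in ER5, ER28 and ER29. Of all genes 28.1% fell in ER47, 27.5% in ER5, 20.9% in ER28 and 27.1% in ER29. Among protein-coding genes alone the shares were 39%, 37.2%, 29% and 37.8%. AGPAT5, which makes phosphatidic acid from lysophosphatidic acid, had 15, 16.7 and 14.3 FPKM in ER42, 18.9, 17.7 and 19.1 in ER47, 21.9, 22.4 and 24.8 in ER5, 27.8, 28.1 and 24.5 in ER28, 23.6, 25.4 and 25.6 in ER29, and 36.5, 38.3 and 36.2 in the parental line. The ER42 libraries lay below all others, those of ER47 next, and the parental libraries highest, with no overlap among those 3 lines. AGPAT5 fell in each of the other resistant lines against the parental line, with log2 folds of -0.96 ± 0.07 (SE) in ER47, -0.66 ± 0.07 in ER5, -0.45 ± 0.07 in ER28 and -0.56 ± 0.07 in ER29. These calls held under every alternative tried, with limma adjusted p from 6.66e-08 in ER47 to 0.000124 in ER28.

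TUSC3, a subunit of the oligosaccharyltransferase that attaches N-linked sugars in the endoplasmic reticulum, had 23.1, 22.2 and 24 FPKM in ER42, 28.9, 31.6 and 25.4 in ER47, 44.7, 43.6 and 42.6 in ER5, 51.1, 47.1 and 48.3 in ER28, 39.95, 41.7 and 38.7 in ER29, and 59, 57.1 and 54.5 in the parental line. It was the last gene before the division, with ER42 lowest, ER47 next and the parental line highest. Its level in ER42 was 40.7% of that in the parental line and 80.9% of that in ER47. In ER47 its log2 fold against the parental line was -0.97 ± 0.07 (SE, limma adjusted p = 3.93e-08). In ER5 and ER29 it was -0.37 ± 0.07 and -0.49 ± 0.07, with limma adjusted p of 0.000206 and 1.95e-05. In ER28 TUSC3 also fell, with -0.22 ± 0.07, a call lost without ER28 replicate 2, ER28 replicate 3, parental replicate 1 or parental replicate 2 (limma adjusted p up to 0.0774).

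MTMR9, a catalytically inactive member of the myotubularin family that pairs with active members, averaged 6.32 ± 0.363 FPKM in ER42, 8.74 ± 0.0141 in ER47, 10.8 ± 0.742 in ER5, 11.1 ± 0.294 in ER28, 12.4 ± 0.66 in ER29 and 12.5 ± 0.239 in the parental line (SD, n = 3 each). ER42 did not overlap any line, and ER47 lay below ER5, ER28, ER29 and the parental line. MTMR9 fell in ER47 against the parental line, with a log2 fold of -0.47 ± 0.06 (SE), and in ER5, with -0.20 ± 0.06, a call lost without ER5 replicate 1 or ER5 replicate 2 (limma adjusted p up to 0.0599). PPP1R3B, which brings protein phosphatase 1 to glycogen, had 1.78, 1.57 and 1.94 FPKM in ER42, 3.46, 4.18 and 3.01 in ER47, 9.22, 5.88 and 5.35 in ER5, 3.18, 2.73 and 3.22 in ER28, 4.58, 4.04 and 3.51 in ER29, and 9.52, 9.96 and 9.41 in the parental line. It had the lowest log2 fold in ER42 against the parental line of all tested members, -1.94 ± 0.15 (SE). ER42 lay below all other lines, the parental line lay highest, and ER47 overlapped ER28 and ER29. Against the parental line it fell, with log2 folds of -1.23 ± 0.15 in ER47, -0.47 ± 0.15 in ER5, -1.40 ± 0.15 in ER28 and -1.08 ± 0.15 in ER29. The call in ER5 was lost without ER5 replicate 2 or ER5 replicate 3 (limma adjusted p up to 0.0814).

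MSRA, which reduces oxidised methionine, fell in ER47 against the parental line, with a log2 fold of -0.43 ± 0.15 (SE), and that call was lost without ER47 replicate 1, ER47 replicate 3 or parental replicate 2 (limma adjusted p up to 0.153). MTMR7 of the inner stretch, a phosphatase of the myotubularin family, averaged 8.14 ± 1.28 FPKM in ER42, 4.8 ± 0.0502 in ER47, 2.31 ± 0.565 in ER5, 5.03 ± 0.798 in ER28, 4.64 ± 0.759 in ER29 and 7.66 ± 0.327 in the parental line (SD, n = 3 each), so that ER42 and the parental line were high and ER5 was low. It fell in ER47, ER5, ER28 and ER29 against the parental line. ASAH1, the lysosomal acid ceramidase, had 27.1, 25.3 and 29.3 FPKM in ER42, 35.1, 35.4 and 28.6 in ER47, 37.2, 33.7 and 31.9 in ER5, 27.6, 29.1 and 32.6 in ER28, 40.4, 38 and 33.7 in ER29, and 32.3, 29.96 and 35.1 in the parental line. The libraries of ER42 overlapped those of ER47 and ER28 and lay below those of ER5, ER29 and the parental line, and no call was made against the parental line in the other resistant lines. NAT1, an arylamine N-acetyltransferase, was at most 2.31 FPKM in every library and was not called against the parental line in those lines.

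RNA processing, export and transcription factors made up 8 members, of which 7 were tested. The outer genes ERI1, GATA4, ZNF596 and SOX7 had their lowest means in ER42. Their log2 folds in ER42 against the parental line were -0.70, -0.64, -0.31 and -0.06. The inner genes CNOT7, INTS10 and XPO7 had log2 folds of -0.02, -0.01 and -0.01 in the same comparison, so that SOX7 lay near them. CNOT7, a deadenylase of the CCR4-NOT complex that shortens mRNA tails, had 62.3, 63 and 65.2 FPKM in ER42, 74.1, 71.9 and 71.1 in ER47, 68.5, 67.7 and 64.5 in ER5, 58.9, 61.2 and 64.6 in ER28, 67, 64.5 and 65.9 in ER29, and 64.3, 64.7 and 63.6 in the parental line. ER42 overlapped the parental line, and ER47 lay above all other libraries. CNOT7 rose in ER47 against the parental line by 0.17 ± 0.04 on the log2 scale (SE, limma adjusted p = 0.0038), the one inner gene that did.

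INTS10, a subunit of the Integrator complex that processes small nuclear RNAs, had 22.6, 16.6 and 20.6 FPKM in ER42, 18.9, 18.6 and 21.1 in ER47, 27.1, 25.3 and 22.1 in ER5, 21.4, 21.1 and 18.5 in ER28, 19.8, 23 and 22.5 in ER29, and 19.1, 19.3 and 21.3 in the parental line. ER42 overlapped every other line, and the libraries of ER5 lay above those of ER47, ER28 and the parental line. INTS10 was called higher in ER5 than in the parental line (0.30 ± 0.10, limma adjusted p = 0.0243), but that call was lost without ER5 replicate 1, ER5 replicate 2, parental replicate 1 or parental replicate 2 (limma adjusted p up to 0.101). XPO7, a nuclear export receptor and the gene that ends the stretch, had 34.9, 39.4 and 39.2 FPKM in ER42, 38.5, 35.8 and 38.5 in ER47, 37.8, 40.4 and 39.3 in ER5, 42.6, 44.6 and 43.4 in ER28, 35.5, 37.4 and 38 in ER29, and 37.7, 37.8 and 38.6 in the parental line. The libraries of ER42 lay within the range of the others except at their lower end, and ER28 lay above all other lines, at 0.19 ± 0.05 against the parental line (limma adjusted p = 0.0105).

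GATA4, a zinc-finger transcription factor of heart and endoderm, had 7.12, 8.83 and 16.7 FPKM in ER42, 18.6, 19.4 and 18.5 in ER47, 28.1, 22.4 and 22 in ER5, 56.8, 47.6 and 53.7 in ER28, 31.6, 30.03 and 30.2 in ER29, and 16.5, 15.3 and 17.6 in the parental line. The parental libraries overlapped those of ER42, and ER28 held the highest values. GATA4 rose in ER28 and ER29 against the parental line, by 1.62 ± 0.19 and 0.86 ± 0.19 (SE), with limma adjusted p of 1.35e-05 and 0.00184. It also rose in ER5, by 0.52 ± 0.19, a call lost without ER5 replicate 1, parental replicate 1, parental replicate 2 or parental replicate 3 (limma adjusted p up to 0.133). In ER47 the fold was 0.18 ± 0.19 and was not called. ERI1, an exonuclease that trims the ends of histone mRNA and ribosomal RNA, averaged 6.64 ± 0.856 FPKM in ER42, 8.47 ± 0.628 in ER47, 10.8 ± 1.91 in ER5, 11.7 ± 0.825 in ER28, 8.59 ± 0.101 in ER29 and 11.3 ± 0.274 in the parental line (SD, n = 3 each), and ER42 did not overlap any other line. ERI1 fell in ER47 and ER29 against the parental line, with log2 folds of -0.39 ± 0.10 and -0.37 ± 0.10 (SE).

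ZNF596, a zinc-finger protein and the outermost gene, averaged 3.17 ± 0.906 FPKM in ER42, 6.37 ± 1.27 in ER47, 9.31 ± 0.971 in ER5, 7.36 ± 0.861 in ER28, 8.58 ± 1.81 in ER29 and 4.11 ± 0.698 in the parental line (SD, n = 3 each). Here the parental line and ER42 were both low and overlapped. ZNF596 rose in ER47, ER5, ER28 and ER29 against the parental line, with log2 folds of 0.52 ± 0.18, 1.02 ± 0.18, 0.71 ± 0.18 and 0.90 ± 0.18 (SE). Its call in ER47 was lost without ER47 replicate 1, ER47 replicate 2 or parental replicate 2 (limma adjusted p up to 0.114). SOX7, a transcription factor of vessel endothelium, was at most 1.38 FPKM in every library and was not called in those 4 lines.

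GTPase regulators and candidate growth suppressors made up 10 members, of which 6 were tested. Of these, LZTS1, MFHAS1 and MTUS1 fell in all 4 resistant lines other than ER42, as 15.3% of all genes did. LZTS1, a leucine-zipper protein of the inner stretch, had 4.89, 4.58 and 4.5 FPKM in ER42, 2.68, 2.96 and 3.23 in ER47, 0.556, 0.735 and 0.682 in ER5, 5.92, 5.23 and 5.48 in ER28, 3.45, 3.26 and 3.81 in ER29, and 20.9, 18.8 and 19 in the parental line. The parental libraries lay far above all others, ER5 lay lowest, and no line overlapped another, with ER42 between ER29 and ER28. In ER42 its log2 fold against the parental line was -1.86 ± 0.08 (SE). In ER47, ER5, ER28 and ER29 it fell, with -2.38 ± 0.08, -3.63 ± 0.08, -1.65 ± 0.08 and -2.19 ± 0.08, the lowest fold of any tested member in each of those lines.

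MFHAS1, a leucine-rich repeat protein with a GTPase domain, had 3.24, 3.94 and 5.07 FPKM in ER42, 3.8, 4.18 and 4.63 in ER47, 4.88, 4.78 and 4.76 in ER5, 7.77, 6.88 and 7.47 in ER28, 4.53, 5.33 and 4.91 in ER29, and 10.9, 12.5 and 10.8 in the parental line. The parental libraries again lay above all others, and ER42 overlapped ER47, ER5 and ER29. Its log2 folds were -1.30 ± 0.11 (SE) in ER42 against the parental line, and -1.25 ± 0.11, -1.09 ± 0.11, -0.56 ± 0.11 and -1.06 ± 0.11 in ER47, ER5, ER28 and ER29, where each was called as a fall. MTUS1, a microtubule-associated protein, averaged 0.913 ± 0.139 FPKM in ER42, 1.43 ± 0.266 in ER47, 1.08 ± 0.309 in ER5, 0.595 ± 0.195 in ER28, 2.17 ± 0.257 in ER29 and 3.65 ± 0.466 in the parental line (SD, n = 3 each). It fell in ER47, ER5, ER28 and ER29, and the parental libraries did not overlap any resistant line.

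DLC1, a GTPase-activating protein, averaged 2.28 ± 0.346 FPKM in ER42, 5.9 ± 1.46 in ER47, 14.8 ± 2.06 in ER5, 3.52 ± 1.41 in ER28, 9.53 ± 2.08 in ER29 and 3.3 ± 0.815 in the parental line (SD, n = 3 each). It rose in ER5 and ER29 against the parental line, by 1.88 ± 0.22 and 1.29 ± 0.22 (SE), with limma adjusted p of 3.47e-06 and 0.00017. In ER47 the rise was 0.68 ± 0.22, and its call was lost without ER47 replicate 1, ER47 replicate 2 or parental replicate 2 (limma adjusted p up to 0.0923). ARHGEF10, a guanine nucleotide exchange factor, averaged 4.84 ± 0.577 FPKM in ER42, 3.39 ± 0.025 in ER47, 4.53 ± 0.421 in ER5, 6 ± 1.03 in ER28, 6.69 ± 0.924 in ER29 and 8 ± 0.673 in the parental line (SD, n = 3 each), so that ER47 and not ER42 held the lowest level. ARHGEF10 fell in ER47, ER5 and ER28 against the parental line, with log2 folds of -1.03 ± 0.12, -0.70 ± 0.12 and -0.37 ± 0.12 (SE), and the call in ER28 was lost without ER28 replicate 1, ER28 replicate 3, parental replicate 2 or parental replicate 3 (limma adjusted p up to 0.0871). PSD3, an exchange factor for ARF6, had 14.7, 15.9 and 16.5 FPKM in ER42, 16.1, 17.5 and 19.2 in ER47, 14.7, 16 and 20.5 in ER5, 17.4, 21 and 14.5 in ER28, 13.4, 16.6 and 15.9 in ER29, and 18.4, 19.5 and 17.6 in the parental line. The libraries of ER42 lay below the parental ones and overlapped those of the other resistant lines, and PSD3 was not called in ER47, ER5, ER28 or ER29 against the parental line.

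Protein sorting, modification and turnover made up 6 members, all tested. FBXO25, an F-box protein of a ubiquitin ligase, had 12.2, 13.2 and 14.3 FPKM in ER42, 19.7, 21.3 and 17.6 in ER47, 29.6, 29.9 and 30.3 in ER5, 24.1, 24.2 and 22.8 in ER28, 27.5, 26.4 and 25.4 in ER29, and 17.6, 17.1 and 16.8 in the parental line. The ER42 libraries lay below all others, those of the parental line and ER47 lay next, and ER5, ER28 and ER29 lay highest. FBXO25 rose against the parental line by 0.76 ± 0.07, 0.44 ± 0.07 and 0.59 ± 0.07 (SE) in ER5, ER28 and ER29, with limma adjusted p of 1.77e-07, 0.000114 and 3.64e-06. In ER47 the rise of 0.17 ± 0.07 (limma adjusted p = 0.0468) was lost under 18 of 25 alternatives, among them the fits without ER42 replicate 2, ER5 replicate 1, ER5 replicate 2, ER5 replicate 3, ER28 replicate 1, ER28 replicate 2, ER28 replicate 3, ER29 replicate 1, ER29 replicate 2, ER29 replicate 3, ER47 replicate 1, ER47 replicate 2, parental replicate 1, parental replicate 2 or parental replicate 3 (limma adjusted p up to 0.224). Its level in ER47 was 65.3%, 82.5% and 73.9% of that in ER5, ER28 and ER29, and the call against ER28 was lost under quantile normalisation.

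VPS37A, a subunit of the ESCRT-I complex that sorts ubiquitinated cargo, had 23.9, 19.9 and 23.3 FPKM in ER42, 22.7, 19.1 and 21.6 in ER47, 22.9, 27.8 and 26.2 in ER5, 19.2, 20.9 and 20.9 in ER28, 20.8, 22.9 and 20.1 in ER29, and 24.8, 23 and 23.1 in the parental line. ER42 overlapped each of the 5 other lines, and no call was made against the parental line in ER47, ER5, ER28 or ER29. ZDHHC2, a palmitoyltransferase, averaged 3.55 ± 0.542 FPKM in ER42, 4.06 ± 1.69 in ER47, 1.23 ± 0.309 in ER5, 5.94 ± 0.805 in ER28, 8.22 ± 1.16 in ER29 and 10.1 ± 0.518 in the parental line (SD, n = 3 each). It fell in ER47 and ER5 against the parental line, with log2 folds of -1.19 ± 0.20 and -2.32 ± 0.20 (SE), with limma adjusted p of 0.000143 and 1.29e-07. In ER28 ZDHHC2 also fell, with -0.69 ± 0.20, a call lost without ER28 replicate 2 (limma adjusted p up to 0.0586). KBTBD11, a protein with BTB and kelch domains, averaged 3.42 ± 0.449 FPKM in ER42, 3.32 ± 0.35 in ER47, 2.04 ± 0.202 in ER5, 5.46 ± 0.439 in ER28, 5.37 ± 0.412 in ER29 and 7.34 ± 0.34 in the parental line (SD, n = 3 each), lowest in ER5, and it fell in ER47, ER5, ER28 and ER29.

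CLN8, a membrane protein of the endoplasmic reticulum, had its lowest mean in ER42, with ER47 next. Its log2 fold in ER47 against the parental line was -0.55 ± 0.16 (SE), a call lost without ER47 replicate 2 (limma adjusted p up to 0.0707). LONRF1, a RING-finger protein, averaged 3.11 ± 0.486 FPKM in ER42, 3.29 ± 0.335 in ER47, 4.41 ± 0.426 in ER5, 4.65 ± 0.63 in ER28, 5.01 ± 0.128 in ER29 and 5 ± 0.352 in the parental line (SD, n = 3 each), and the libraries of ER42 and ER47 overlapped each other. LONRF1 fell in ER47 against the parental line, with a log2 fold of -0.48 ± 0.11 (SE). Its call in ER47 against ER5 was lost without ER5 replicate 1, ER5 replicate 2, ER29 replicate 2, ER29 replicate 3, ER47 replicate 2, ER47 replicate 3, parental replicate 2 or parental replicate 3 (limma adjusted p up to 0.143). The call against ER28 was lost without ER28 replicate 3, ER47 replicate 2 or ER47 replicate 3 (limma adjusted p up to 0.1), and that against ER29 without ER29 replicate 2, ER29 replicate 3, ER47 replicate 2 or ER47 replicate 3 (limma adjusted p up to 0.067).

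Membrane transport, adhesion, synapse and muscle proteins made up 8 members, of which 3 were tested. MICU3, a regulator of the mitochondrial calcium uniporter and the first gene past the division, had 8.54, 9.95 and 7.23 FPKM in ER42, 10.8, 7.86 and 5.84 in ER47, 4.19, 6.44 and 7.76 in ER5, 9.74, 7.9 and 6.77 in ER28, 6.95, 7.95 and 8.85 in ER29, and 7.46, 6.49 and 7.02 in the parental line. All lines overlapped, and its log2 fold in ER42 against the parental line, 0.25 ± 0.20 (SE), was the highest of the tested members. SLC7A2, a transporter of cationic amino acids, averaged 1.52 ± 0.166 FPKM in ER42, 2.34 ± 0.0908 in ER47, 3.65 ± 0.483 in ER5, 2.17 ± 0.105 in ER28, 3.18 ± 0.58 in ER29 and 2.61 ± 0.354 in the parental line (SD, n = 3 each), and ER42 did not overlap any other line. SLC7A2 rose in ER5 against the parental line, by 0.36 ± 0.12 (SE), a call lost without ER5 replicate 1, parental replicate 2 or parental replicate 3 (limma adjusted p up to 0.076). XKR6, a membrane protein of the XK family, ranged from 5.82 to 7.01 FPKM in ER42 and from 5.31 to 14 FPKM in the other lines.

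Secreted factors and defensins made up 27 members, and ANGPT2, a ligand of the endothelial receptor TIE2, was the one tested. It averaged 0.706 ± 0.0248 FPKM in ER42, 0.513 ± 0.0877 in ER47, 0.642 ± 0.677 in ER5, 0.698 ± 0.332 in ER28, 0.696 ± 0.351 in ER29 and 0.959 ± 0.0346 in the parental line (SD, n = 3 each), and its libraries in ER5 alone ran between 0.17 and 1.42 FPKM. On no list were 25 members, of which 7 were tested. BLK, a Src-family kinase of B cells, averaged 1.37 ± 0.799 FPKM in ER42, 3.87 ± 0.322 in ER47, 4.71 ± 0.613 in ER5, 9.12 ± 0.0897 in ER28, 12.2 ± 1.58 in ER29 and 2.26 ± 0.321 in the parental line (SD, n = 3 each). It rose in ER47, ER5, ER28 and ER29 against the parental line by 0.58 ± 0.18, 0.81 ± 0.18, 1.64 ± 0.18 and 2.02 ± 0.18 (SE), and the call in ER47 was lost without ER47 replicate 1 or parental replicate 1 (limma adjusted p up to 0.0599). BLK neighbours FAM167A and GATA4, which were also highest in ER28 or ER29.

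FAM167A averaged 11.4 ± 7.24 FPKM in ER42, 16 ± 3.24 in ER47, 10.5 ± 1.45 in ER5, 43 ± 2.79 in ER28, 30.5 ± 3.03 in ER29 and 16.5 ± 0.471 in the parental line (SD, n = 3 each). It rose in ER28 by 1.32 ± 0.29 (SE, limma adjusted p = 0.00203). It also rose in ER29, by 0.84 ± 0.29, a call lost without ER29 replicate 3, parental replicate 2 or parental replicate 3 (limma adjusted p up to 0.0737). ERICH1 averaged 6.05 ± 0.975 FPKM in ER42, 8.62 ± 0.583 in ER47, 13.3 ± 1.45 in ER5, 9.7 ± 0.758 in ER28, 14.4 ± 2.18 in ER29 and 12.2 ± 0.734 in the parental line (SD, n = 3 each), and ER42 lay below all other lines. ERICH1 fell in ER47 against the parental line, with a log2 fold of -0.46 ± 0.12 (SE). TDRP rose in ER5 and ER29 against the parental line, by 0.82 ± 0.21 and 1.13 ± 0.21 (SE), with limma adjusted p of 0.00375 and 0.000324. C8orf48 was at most 1.84 FPKM in every library, and its fall in ER47 against the parental line (-0.36 ± 0.14) was lost under 15 of 25 alternatives.

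USP17L7 had 0.513, 0.421 and 0.621 FPKM in ER42, 0.785, 0.991 and 0.515 in ER47, 0.642, 0.467 and 1.1 in ER5, 0.679, 1.29 and 0.397 in ER28, 1.01, 1.85 and 1.45 in ER29, and 0.403, 0.257 and 0.463 in the parental line. ER42 lay below ER29 and overlapped the other lines, and its log2 fold in ER42 against the parental line, 0.14 ± 0.20 (SE), was among the 3 highest. FAM86B1 averaged 2.19 ± 0.136 FPKM in ER42, 3.3 ± 0.794 in ER47, 6.33 ± 0.73 in ER5, 4.98 ± 1.25 in ER28, 7.47 ± 0.535 in ER29 and 3.41 ± 0.237 in the parental line (SD, n = 3 each), and ER42 lay below all other lines. FAM86B1 rose in ER5, ER28 and ER29 against the parental line, with log2 folds of 0.73 ± 0.14, 0.42 ± 0.14 and 0.94 ± 0.14 (SE), and the call in ER28 was lost without ER28 replicate 2, parental replicate 1, parental replicate 2 or parental replicate 3 (limma adjusted p up to 0.166). USP17L7 rose in ER29, by 0.82 ± 0.20. USP17L7 and FAM86B1 have near-identical copies in the genome, so their values are uncertain. For 20 of the 43 tested members another tested gene overlaps in the annotation, and the sources used here do not give whether strand was used in counting.

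Relative to the parental line, more of the tested members fell in ER47 than in ER5, ER28 and ER29. The 4 comparisons share the 3 parental libraries. The parental values and those of these 4 lines had all been used in choosing the stretch, since ER42 was low against them. A choice that favours high values in a resistant line disfavours falls there, and one that favours high parental values favours falls. Counts, shares and adjusted p-values against the parental line, here and for single genes above, are therefore a description and no independent test. In ER47, 21 members (48.8%) fell and 5 (11.6%) rose, where 28.1% of all genes fell and 18.8% rose. In ER5, 12 fell (27.9%) and 10 rose (23.3%), where 27.5% of all genes fell and 24.5% rose. In ER28, 11 fell (25.6%) and 8 rose (18.6%), where 20.9% of all genes fell and 14.6% rose. In ER29, 10 fell (23.3%) and 9 rose (20.9%), where 27.1% of all genes fell and 23.1% rose. Among protein-coding genes alone, larger shares fell: 39% in ER47, 37.2% in ER5, 29% in ER28 and 37.8% in ER29, while 19.2%, 26.2%, 16.6% and 22.4% rose. Against these, the members' share that fell was higher in ER47 and lower in ER5, ER28 and ER29. Without ER47 replicate 1 the rises in ER47 numbered 1, without ER47 replicate 2 or parental replicate 2 they numbered 2, and without parental replicate 1 they numbered 3. Without ER5 replicate 1 or parental replicate 2 the rises in ER5 numbered 6.

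Against the parental line, 9 members fell in each of ER47, ER5, ER28 and ER29, where 15.3% of all genes did so: KBTBD11, AGPAT5, MFHAS1, PPP1R3B, PINX1, TUSC3, MTMR7, MTUS1 and LZTS1. PINX1 fell with log2 folds of -0.98 ± 0.08, -0.51 ± 0.08, -0.22 ± 0.08 and -0.41 ± 0.08 (SE) in those lines, and the call in ER28 was lost without ER28 replicate 1, ER28 replicate 2, ER28 replicate 3, parental replicate 1 or parental replicate 2 (limma adjusted p up to 0.125). ZNF596, FBXO25 and BLK rose in all 4, with the losses in ER47 given above. The share of all genes that rose in all 4 was not computed, so nothing is read from that count. TNKS and NEIL2 moved in opposite directions in different lines, as 1.81% of all genes did. No call was made in any of the 4 lines for 9 members, with 30.9% of all genes: ANGPT2, SOX7, XKR6, MICU3, VPS37A, PCM1, ASAH1, NAT1 and PSD3. An F test among ER47, ER5, ER28 and ER29 called 32 of the 43 members, 24 of them outer genes, where it called 40.7% of all genes. The values of these lines had been used in choosing the stretch, so the count is a description. All members are protein-coding. The shares for that type alone were not computed, neither for the F test nor for the patterns over the 4 lines.

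**Figure D5:**
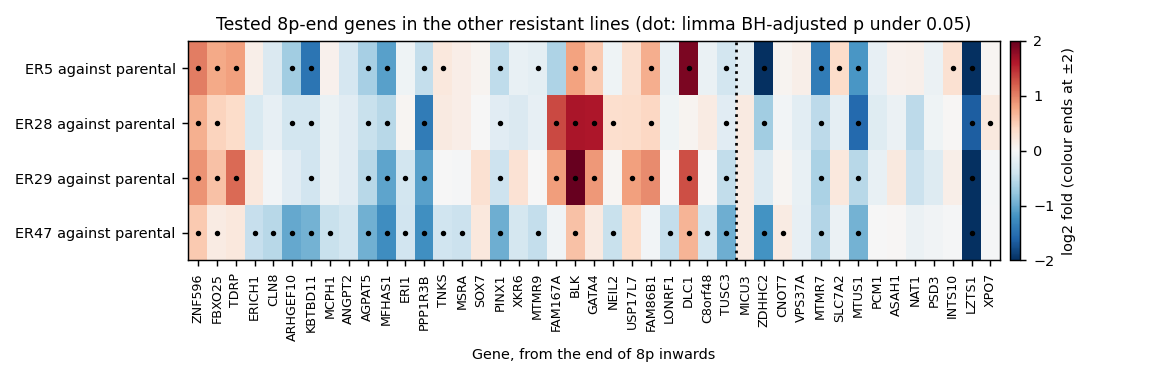
Log2 fold of each tested gene in ER5, ER28, ER29 and ER47 against the parental line, in gene order, with colour limits of ±2 and a dot where the limma adjusted p was under 0.05. LZTS1 and MTUS1 right of the dotted line are blue in all 4 rows, BLK is red in all 4, and ER47 has the most blue dots left of the line.

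At the filter, ANGPT2 reached 1 FPKM in 3 libraries and SOX7 and USP17L7 in 5, just inside it. MYOM2, USP17L2 and TRMT9B reached it in 1 library and lay outside. Of the 57 untested members 54 never reached 1 FPKM, 31 were listed at 0 in every library, and the highest value of any was 2.06 FPKM, for MYOM2. At the inner end, XPO7 and the untested DOK2 lay just inside. Just outside, NPM2 averaged 2.38 ± 0.561 FPKM in ER42, 3.11 ± 0.146 in ER47, 4.23 ± 0.808 in ER5, 2.27 ± 1.05 in ER28, 3.49 ± 1.41 in ER29 and 0.922 ± 0.579 in the parental line (SD, n = 3 each). The next gene, FGF17, averaged 0.919 ± 0.0443 FPKM in ER42, 1.6 ± 0.244 in ER47, 2.55 ± 0.337 in ER5, 1.47 ± 0.213 in ER28, 2.01 ± 0.271 in ER29 and 0.356 ± 0.0289 in the parental line. DMTN averaged 12.3 ± 1.36 FPKM in ER42, 8.35 ± 0.678 in ER47, 8.06 ± 1.94 in ER5, 7.01 ± 0.532 in ER28, 9.75 ± 1.06 in ER29 and 10.7 ± 0.886 in the parental line.

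Of the genes left out, FDFT1, which makes squalene, averaged 27.8 ± 6.41 FPKM in ER42, 28.1 ± 1.54 in ER47, 41.9 ± 4.99 in ER5, 52 ± 5.25 in ER28, 41.4 ± 0.932 in ER29 and 58.6 ± 3.46 in the parental line (SD, n = 3 each). CTSB, the lysosomal protease cathepsin B, averaged 25 ± 5.94 FPKM in ER42, 37.3 ± 4.49 in ER47, 47.9 ± 4.5 in ER5, 93 ± 9.57 in ER28, 71.7 ± 3.84 in ER29 and 57.5 ± 3.25 in the parental line. Both lie in the outer stretch, and ER42 held their lowest mean. For FDFT1, however, the libraries of ER42 and ER47 overlapped, at a log2 fold of -0.04 ± 0.13 (SE) between the 2 lines. In the inner stretch, SLC18A1, a vesicular monoamine transporter, averaged 3.25 ± 0.529 FPKM in ER42, 1.2 ± 0.135 in ER47, 0.21 ± 0.118 in ER5, 2.11 ± 0.199 in ER28, 0.792 ± 0.399 in ER29 and 20.8 ± 0.837 in the parental line. ATP6V1B2, a subunit of the vacuolar proton pump, averaged 30.9 ± 2.24 FPKM in ER42, 22.9 ± 0.642 in ER47, 22.4 ± 1.44 in ER5, 27.6 ± 1.08 in ER28, 24.1 ± 2.64 in ER29 and 46.1 ± 0.824 in the parental line. GFRA2, a receptor for neurturin, averaged 15.2 ± 4.09 FPKM in ER42, 62.5 ± 14.8 in ER47, 132 ± 13.8 in ER5, 51.5 ± 2.36 in ER28, 87.1 ± 14 in ER29 and 0.599 ± 0.219 in the parental line.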

How the data were processed

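Bulk RNA libraries of 6 lines, 3 each, were analysed. The hg19 build, STAR-Fusion, STAR 2.5.3 and featureCounts with Subread 1.5.0-p1 are named, per the submitters' processing notes. The authors deposited FPKM values for 63657 Ensembl identifiers. Not given in the sources used here are the tool and library total behind them, strand use, and which library ran on the HiSeq or the NextSeq, so a sequencer batch was not tested. FPKM are not counts, so no count test was used. Depth is unknown, and no counting interval is given.

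Names, types and order came from GENCODE release 29 on GRCh38, which held 52514 (82.5%) of the identifiers, matched by ID. The build differs from the authors', so no coordinates are given. Of 120 protein-coding genes from ZNF596 to XPO7 in that annotation, 115 remained after 5 were left out, and 100 were in the table. Genes with at least 1 FPKM in at least 3 of 18 columns were tested as log2(FPKM + 1), in 1 limma fit with an intensity trend over all libraries (limma 3.58.1 and statmod 1.5.0 in R 4.3.3). The tests, two-sided, were Benjamini-Hochberg adjusted over 19799 genes, and called under 0.05. Folds, on the log2(FPKM + 1) scale, understate changes of low genes. The fit was tested on simulated data.

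The members, lists, comparisons and tests were chosen with earlier results of these data known. Every tested member could be named. Some genes of the neuroblastoma marker list are not reported here. Values per library are given for list members that average at least 10 FPKM, except MTMR9, which is given by its line means. They are also given for the 3 highest and 3 lowest folds of ER42 against the parental line. Alternatives were a pseudocount of 0.1, no filter, a filter at 5 FPKM, median-of-ratios scaling, quantile normalisation, no intensity trend, a replicate block and each library left out.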

Additional observations from a re-analysis of the deposited data

Results flagged for a closer look

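The F test among ER47, ER5, ER28 and ER29 called 32 of the 43 tested members, where it called 40.7% of all genes. The values of these lines had been used in choosing the stretch, so the count is a description and no independent test. The share among protein-coding genes alone, the type of all members, was not computed. TNKS rose in ER5 and fell in ER47 against the parental line, and ER47 minus ER5 was -0.61 on the log2 scale, called by limma. NEIL2 rose in ER28 and fell in ER47 against the parental line, and ER47 minus ER28 was -0.77, also called by limma. In both genes the rise is the smaller part of the difference: TNKS was at 0.21 in ER5 and -0.40 in ER47, and NEIL2 at 0.33 in ER28 and -0.44 in ER47. The cause of these differences was not tested.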

How the results depend on the processing

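No result changed direction under any alternative. With a pseudocount of 0.1, the median log2 fold of the members was -0.72 in ER42 against the parental line, -0.50 against ER5, -0.67 against ER28 and -0.73 against ER29, and -0.32 in ER47 against ER5. With no filter, 69 members entered, and the medians were -0.24 in ER42 against the parental line, -0.10 against ER47, -0.18 against ER5, -0.21 against ER28 and -0.35 against ER29. In ER47 they were -0.11, -0.12 and -0.19 against ER5, ER28 and ER29, and 3 members rose against the parental line. With a filter at 5 FPKM, 36 members entered, the median of all genes in ER47 against the parental line was -0.11, and the medians were -0.61 in ER42 against ER28, and -0.30 and -0.35 in ER47 against ER5 and ER28. Under median-of-ratios scaling, the median was -0.23 in ER47 against ER5, and 4 and 1 members were higher in ER47 than in ER28 and ER29. Under quantile normalisation, the medians in ER42 were -0.66, -0.32, -0.55 and -0.65 against the parental line, ER47, ER5 and ER28, 2 members were higher in ER42 than in the parental line, and ER47 against ER28 gave -0.21. The cause of these shifts was not tested, apart from the changed gene sets under the filters.

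With each library left out in turn, the median log2 fold of the members was -0.59 to -0.43 in ER42 against the parental line, -0.29 to -0.21 in ER42 against ER47, -0.50 to -0.37 in ER42 against ER5, -0.56 to -0.50 in ER42 against ER28, -0.67 to -0.64 in ER42 against ER29, -0.31 to -0.23 in ER47 against ER5, -0.30 to -0.22 in ER47 against ER28 and -0.42 to -0.35 in ER47 against ER29. The members called lower numbered 22 to 28 in ER42 against the parental line, 11 to 17 in ER42 against ER47, 21 to 25 in ER42 against ER5, 21 to 25 in ER42 against ER28, 27 to 31 in ER42 against ER29, 12 to 20 in ER47 against ER5, 17 to 21 in ER47 against ER28, 13 to 18 in ER47 against ER29, 19 to 21 in ER47 against the parental line, 10 to 13 in ER5 against the parental line, 8 to 15 in ER28 against the parental line and 10 in ER29 against the parental line. Those called higher numbered 0 in ER42 against the parental line, 2 to 3 in ER42 against ER47, 4 to 6 in ER42 against ER5, 1 to 2 in ER42 against ER28, 2 to 3 in ER42 against ER29, 4 to 5 in ER47 against ER5, 2 to 4 in ER47 against ER28, 0 in ER47 against ER29, 1 to 5 in ER47 against the parental line, 6 to 10 in ER5 against the parental line, 6 to 9 in ER28 against the parental line and 8 to 10 in ER29 against the parental line. The F test called 29 to 33 members. The ER42 libraries lay below all others in 12 to 17 members, and the ER47 libraries below those of ER5, ER28 and ER29 in 12 to 15.

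Same-numbered libraries of different lines showed little shared deviation (correlations of -0.263 to 0.23 over 45 pairs, mean 0.0168). The mean over 90 pairs of different number was -0.00841, and 9 of 18 libraries were closest to their own number. These values do not settle whether the numbers pair the libraries. With the replicate number as a block, 27 members were lower in ER42 than in the parental line, 25 than in ER28 and 30 than in ER29, and no count moved by 1.5 times. The unknown depth limits what can be said of members near 1 FPKM.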
